A study of Mus musculus with 6 samples.

Results

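The NF-κB family was examined through 10 genes of mouse renal tubular epithelial cells (mTECs), of 22442 genes with deposited values. The members were 5 genes that encode the subunits (Rela, Relb, Rel, Nfkb1 and Nfkb2) and 5 that encode inhibitors of the pathway (Nfkbia, Nfkbib, Nfkbie, Nfkbiz and Tnfaip3). They were picked by symbol through the GENCODE M21 annotation, with no measured value in the rule, and all 10 were found. RNA-seq was performed on 6 libraries, 3 labelled LPS and 3 labelled LPSKD. The cells of both groups received LPS, a lipopolysaccharide of the bacterial cell wall, at 20 μg/ml for 24 h. Before LPS, the cells of the LPS group were transfected with a negative control and those of the LPSKD group with an siRNA, which by the study's description silenced Stat3. The siRNA is named by the labels, whereas the study's reagent list gives an shRNA for mouse Stat3. No unstimulated library was analysed here, so the induction of a gene by LPS was not measured, and the comparison was only between the 2 LPS-treated groups. The study's methods describe mTECs as 1 immortalised line, whereas the labels describe magnetically sorted cells, and no genotype, strain or age was given. The labels do not say whether replicates were separate cultures, so each p-value measures only the spread between these libraries.

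The libraries were of even depth, with 24084827 to 25422171 fragments each, as recovered from the FPKM values (fragments scaled to a length for each gene and to the fragments sequenced in the library). Stat3 did not separate the groups. Its level was 34.6, 31.4 and 35.2 FPKM in the libraries labelled LPS and 30.8, 35.2 and 34.3 FPKM in those labelled LPSKD (log2 fold change -0.01, SE 0.07, adjusted p = 0.944 by limma). The groups are therefore called by their labels throughout, and every direction given is that of the libraries labelled LPSKD relative to those labelled LPS. Of 11723 genes tested with limma, 379 (3.23%) had an adjusted p under 0.05, of which 184 were higher and 195 lower. Epithelial identity was visible in the levels of Epcam (307 FPKM in LPS) and Cdh1 (135 FPKM), whereas Aqp2, Slc34a1 and Umod, which define single nephron segments, were at 0 in every library. Not all segment markers were absent, since Aqp1 was at 4.33 FPKM and Cubn at 0.951 FPKM in LPS. Lrp2, Slc5a2, Slc12a1 and Slc12a3 were close to 0.

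NF-κB transcription factors are dimers of Rel-family proteins. In a resting cell most dimers are held in the cytoplasm by IκB proteins. Engagement of Toll-like receptors by LPS activates the IκB kinase complex, which marks IκB for degradation and lets the dimers enter the nucleus. Several genes that the dimers switch on encode brakes of the same pathway, among them IκBα (Nfkbia), IκBε (Nfkbie) and the ubiquitin-editing enzyme encoded by Tnfaip3, so that the response limits itself. In tubular cells the pathway is known for driving chemokine and cytokine production during kidney injury.

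The promoters are shown first, to set out where matches to the NF-κB consensus lie in the members. They were found in members whose groups overlapped (Nfkbie and Rel) as well as in members whose groups did not (Nfkbia, Tnfaip3 and Nfkb2). RefSeq promoter windows of GRCm38.p6, from 250 bases before the transcription start to 50 bases from it, were at hand for 7 members. Relb, Nfkb1 and Nfkbiz had no entry. Positions are counted from the start base, which is 0, and the sequences run along the gene's own strand. Capitals mark matches to the NF-κB consensus on either strand. The Nfkbia stretch lies on the minus strand at chr12:55492648-55492897, and no GENCODE exon overlaps it. The Tnfaip3 stretches lie on the minus strand at chr10:19015516-19015545 and chr10:19015403-19015432, the second overlapping an exon of the gene. Those of Nfkb2 lie on the plus strand at chr19:46304688-46304717 and chr19:46304716-46304745, both overlapping exons of the gene in GENCODE. That of Rel is at chr11:23771042-23771071 (minus strand) and that of Nfkbie at chr17:45555584-45555613 (plus strand), both outside any exon.
Nfkbia, bases -250 to -1: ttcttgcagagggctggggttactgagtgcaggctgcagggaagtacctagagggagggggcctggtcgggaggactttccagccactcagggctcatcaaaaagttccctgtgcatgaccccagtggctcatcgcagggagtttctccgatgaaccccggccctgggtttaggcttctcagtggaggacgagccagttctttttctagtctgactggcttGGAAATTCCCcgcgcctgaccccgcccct
Tnfaip3, bases -135 to -106: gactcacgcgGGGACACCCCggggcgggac
Tnfaip3, bases -22 to 7: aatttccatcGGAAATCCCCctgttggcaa
Nfkb2, bases -49 to -20: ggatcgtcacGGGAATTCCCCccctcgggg
Nfkb2, bases -21 to 8: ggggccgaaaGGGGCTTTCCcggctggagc
Rel, bases -102 to -73: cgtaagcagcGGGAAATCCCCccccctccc
Nfkbie, bases -116 to -87: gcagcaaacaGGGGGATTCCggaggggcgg

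The consensus was found in 5 of the 7 members (Nfkb2, Nfkbia, Nfkbie, Rel and Tnfaip3), beside 9.55% of the 27025 genes in the table with a match in any of their promoters. Nfkbia held its match at -29 to -20, and Tnfaip3 held matches at -125 to -116 and at -12 to -3 of its first listed start. In Nfkb2 the matches at the first listed start were at -39 to -29, where 3 matches overlap, and at -11 to -2. The shorter motif GGGNNTTTC, which often overlaps the consensus, was also found in 5 members, with Rela (-97 to -89) in place of Nfkbie, beside 5.06% of genes. TTCNNNGAA, the motif of STAT proteins, was found in 1 member, Nfkb2 (-148 to -140), beside 9.55% of genes. Nfkbib held none of the 3 motifs in its window. That window (chr7:28766595-28766894) lies inside the GENCODE span of the gene, and its last 50 bases are not part of a GENCODE transcript. Whether it is the promoter of the measured RNA was not tested. These matches describe letters only, and binding was not measured.

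**Figure D1:**
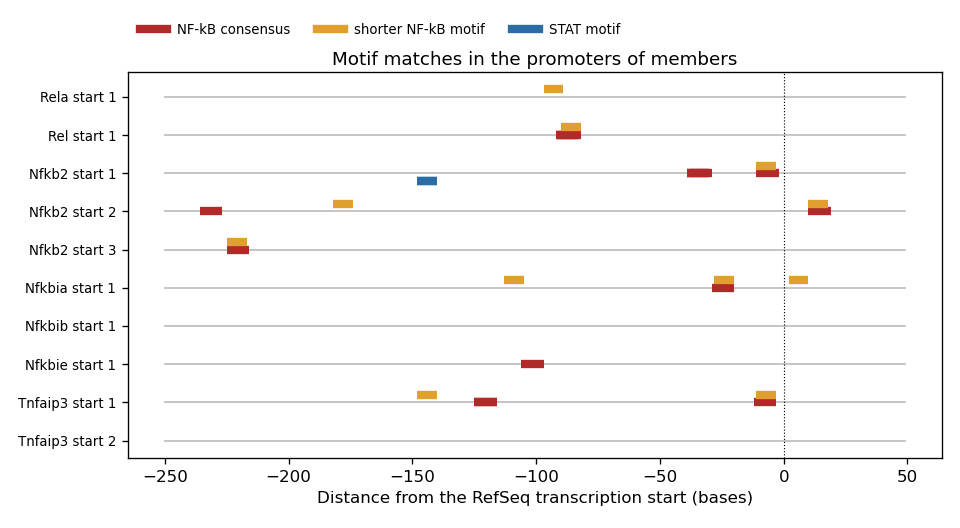
Matches to the 3 motifs in the 10 RefSeq promoter windows of 7 members, drawn by distance in bases from each transcription start (dotted line at 0). Red marks the NF-κB consensus, yellow the shorter NF-κB motif and blue the STAT motif. In Nfkbia, Tnfaip3 and Nfkb2 a consensus match lies within 40 bases before a start, and the window of Nfkbib, which lies inside the gene's GENCODE span, has no match.

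Levels of different genes can be set side by side only roughly, because the FPKM were scaled to coding length. Whether fragments from untranslated ends were counted was not tested. In the libraries labelled LPS, Nfkb1 (90.2 ± 2.78 FPKM, SD, n = 3), Nfkb2 (89.1 ± 3.04 FPKM) and Rela (85.9 ± 2.17 FPKM) were the most abundant members, and the ranges of neighbours in this order overlapped. Tnfaip3 followed (58.3 ± 2.98 FPKM), then Nfkbiz (41.6 ± 1.34 FPKM), Nfkbib (35.1 ± 1.69 FPKM) and Nfkbia (32.2 ± 2.82 FPKM), of which only Nfkbib and Nfkbia overlapped. Relb (18.2 ± 1.14 FPKM), Nfkbie (11 ± 0.516 FPKM) and Rel (2.79 ± 0.182 FPKM) came last, each apart from its neighbours. In the libraries labelled LPSKD the order differed at 1 place, where Nfkbia passed Nfkbib. Nfkbia (38.9 ± 0.751 FPKM) then overlapped Nfkbiz (39.5 ± 1.32 FPKM) and stood above Nfkbib (32.9 ± 1.29 FPKM) without overlap. Nfkb1, Nfkb2 and Rela, whose ranges overlapped in LPS, were apart from each other in LPSKD. For the scarcest member, Rel, counting alone gives a coefficient of variation of 9.07% in LPS and 8.49% in LPSKD, beside 6.52% and 11% between replicates. For Nfkbia the replicates labelled LPS varied by 8.74% beside 3.65% from counting, whereas those labelled LPSKD varied by 1.93% beside 3.32%. For Nfkb1, Nfkb2 and Rela, with 3390 fragments or more in every library, counting gives 1.67% or less.

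**Figure D2:**
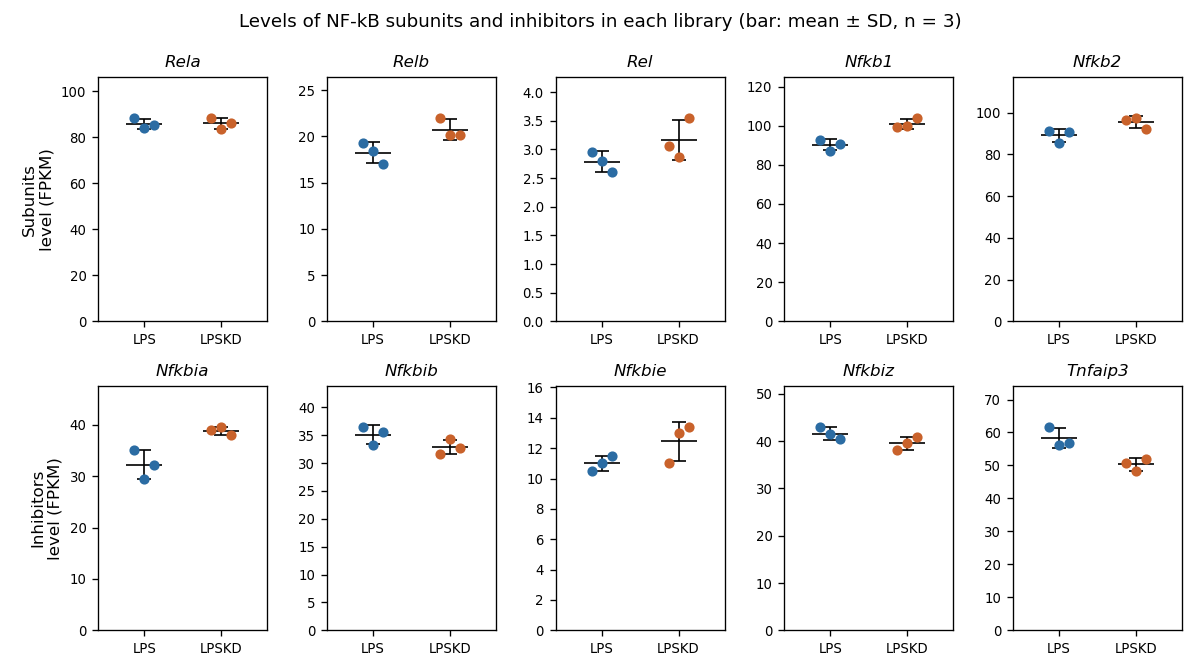
FPKM of each member in the 6 libraries, with subunits in the upper row and inhibitors in the lower, each panel on its own axis from 0. Points are libraries (blue LPS, orange LPSKD) and bars are mean ± SD (n = 3). The points of the groups do not overlap for Relb, Nfkb1, Nfkb2, Nfkbia and Tnfaip3.

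The mean of 7 members was higher in the libraries labelled LPSKD, among them Rela by only 0.0464% and with the opposite sign after quantile normalization, and that of 3 was lower. None of the 10 had an adjusted p under 0.05 by limma, beside 3.23% of all tested genes. An unadjusted limma p under 0.05 was reached by 5 members (Nfkbia, Nfkb1, Tnfaip3, Relb and Nfkb2) and by 17.6% of all tested genes. The same 5 members had groups that did not overlap (50.0%), beside 23.8% of all tested genes, with 4 higher and 1 lower. When recovered fragments were fitted with voom instead, 585 genes passed and 3 members had an adjusted p under 0.05, Nfkb1 (0.0169), Tnfaip3 (0.0296) and Nfkbia (0.0459). With 3 libraries against 3, the exact permutation test of a single gene cannot go below 0.1, which is the value that each of the 5 non-overlapping members had. In bulk RNA, fewer cells that express a gene and less RNA per cell cannot be told apart.

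Among the subunits, Rela encodes the transactivating p65 protein, the main partner of the canonical dimer (ENSMUSG00000024927, chr19:5637483-5648130 of GRCm38). Its level was 88.2, 83.9 and 85.5 FPKM in LPS and 88.4, 83.4 and 86.1 FPKM in LPSKD. The groups covered the same range, and the 95% interval of the difference ran from -6.15% to 6.65% (log2 fold change 0.00, SE 0.04, adjusted p = 0.995, exact permutation p = 1.0).

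Nfkb1 encodes the precursor of the DNA-binding partner of RelA (ENSMUSG00000028163, chr3:135584655-135691547). It stood at 92.7, 87.2 and 90.7 FPKM in LPS and at 99.1, 100 and 104 FPKM in LPSKD. Each library labelled LPSKD was above each labelled LPS, with a mean difference of 12.1% (95% interval 5.1% to 19.5%; log2 fold change 0.16, SE 0.04, adjusted p = 0.0759). Nfkb2, the precursor of the subunit used by the non-canonical pathway (ENSMUSG00000025225, chr19:46304320-46312385), showed 91.3, 85.6 and 90.5 FPKM in LPS and 96.5, 97.5 and 92.3 FPKM in LPSKD. The groups did not overlap, but the gap between the nearest libraries was small, and the adjusted p was 0.274 (log2 fold change 0.10, SE 0.04).

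Relb encodes the partner of the processed Nfkb2 protein in the non-canonical dimer (ENSMUSG00000002983, chr7:19606217-19629438). Its level was 19.3, 18.4 and 17.0 FPKM in LPS and 22, 20.1 and 20.1 FPKM in LPSKD, again without overlap. The mean was 13.6% higher, with a 95% interval of 1.56% to 27.0% (log2 fold change 0.18, SE 0.07, adjusted p = 0.231). Rel, which encodes the subunit best known from lymphocytes (ENSMUSG00000020275, chr11:23736847-23770970), was scarce at 112 to 159 fragments per library. Its values of 2.96, 2.8 and 2.6 FPKM in LPS and 3.06, 2.87 and 3.55 FPKM in LPSKD overlapped. The 95% interval of the difference ran from -10.8% to 42.4% (adjusted p = 0.605).

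The inhibitors differed among themselves in direction. Nfkbia encodes IκBα, the fast-acting IκB that is resynthesised after each round of activation (ENSMUSG00000021025, chr12:55489410-55492647). It stood at 35.1, 29.4 and 32.2 FPKM in LPS and at 38.9, 39.6 and 38.1 FPKM in LPSKD. All 3 libraries labelled LPSKD were above all 3 labelled LPS, and they lay closer together. The mean was 21% higher (95% interval 8.83% to 34.5%; log2 fold change 0.27, SE 0.07), with an unadjusted p of 0.00303 and an adjusted p of 0.0733 by limma. Without LPS replicate 1, the highest of its group, the adjusted p was 0.0246 and the log2 fold change 0.34. Each of the other 5 omissions gave an adjusted p of 0.124 to 0.209 and a log2 fold change of 0.21 to 0.29. With all libraries the alternatives gave adjusted p-values from 0.0459 by voom to 0.167 without the eBayes trend.

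Tnfaip3 encodes a ubiquitin-editing enzyme that dismantles the signalling complexes upstream of the IκB kinase (ENSMUSG00000019850, chr10:19000910-19015657). Its level was 61.7, 56.3 and 56.8 FPKM in LPS and 50.8, 48.3 and 52.1 FPKM in LPSKD. Here all 3 libraries labelled LPSKD were below all 3 labelled LPS. The mean difference was -13.5% (95% interval -20.3% to -5.99%; log2 fold change -0.21, SE 0.05), with an unadjusted p of 0.00361 and an adjusted p of 0.0801 by limma.

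The other 3 inhibitors had overlapping groups. Nfkbiz encodes IκBζ, a nuclear member of the family that acts as a cofactor at a subset of target genes rather than as a cytoplasmic anchor (ENSMUSG00000035356, chr16:55811375-55838899). It showed 43.0, 41.4 and 40.4 FPKM in LPS and 38.2, 39.5 and 40.9 FPKM in LPSKD (log2 fold change -0.07, SE 0.05, adjusted p = 0.49). Nfkbib, which encodes the slower IκBβ (ENSMUSG00000030595, chr7:28758251-28767512), stood at 36.5, 33.2 and 35.6 FPKM in LPS and 31.7, 34.3 and 32.7 FPKM in LPSKD (log2 fold change -0.09, SE 0.06, adjusted p = 0.432). Only LPSKD replicate 2 of Nfkbib reached into the range of the other group. Nfkbie encodes IκBε, a delayed inhibitor (ENSMUSG00000023947, chr17:45555703-45563169), and its values were 10.5, 11 and 11.5 FPKM in LPS and 11, 13 and 13.4 FPKM in LPSKD (log2 fold change 0.17, SE 0.09, adjusted p = 0.376). LPSKD replicate 1 of Nfkbie lay within the LPS range, and the other LPSKD libraries above it.

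**Figure D3:**
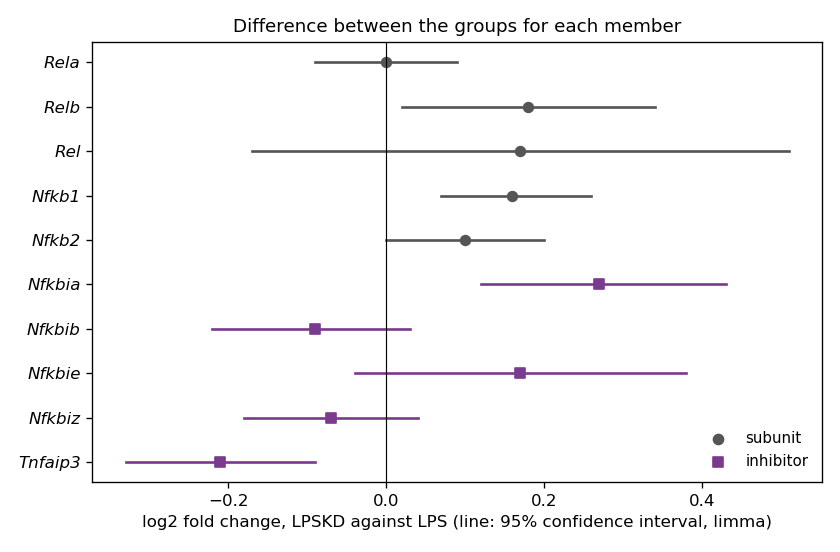
Log2 fold change of each member, LPSKD against LPS, with its 95% confidence interval from limma over all tested genes (circles subunits, squares inhibitors). Among the subunits the estimates run from 0.00 for Rela to 0.18 for Relb, whereas the inhibitors run from -0.21 for Tnfaip3 to 0.27 for Nfkbia. Intervals are not adjusted for the number of genes tested.

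The 5 subunits had a median log2 fold change of 0.16 and the 5 inhibitors one of -0.07, beside -0.008 over all tested genes. Of the subunits, 3 (60.0%) had non-overlapping groups, all higher, and of the inhibitors 1 was higher and 1 lower without overlap (40.0%). The share over all tested genes was 23.8%, and with 5 genes in each set these shares are coarse. In each library the mean log2 level of the inhibitors was set against that of the subunits, as a description without a test. The inhibitors minus the subunits gave -0.0584, -0.0793 and -0.0155 in LPS and -0.226, -0.103 and -0.152 in LPSKD. All 3 LPSKD values were the lower ones, and the group difference was -0.11 with means. It was 0.137 with medians in place of means, so the direction of this contrast depended on the summary. Summed FPKM of the subunits ran from 278 to 294 in LPS and from 304 to 309 in LPSKD, without overlap, while that of the inhibitors ran from 171 to 187 and from 171 to 177.

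Ratios between members of the same library are free of library scaling. Nfkbia relative to Rela was 0.397, 0.351 and 0.376 in LPS and 0.441, 0.475 and 0.443 in LPSKD, and the groups did not overlap. The other ratios were chosen after the values had been seen and are given as description. Nfkbia relative to Tnfaip3, the pair of inhibitors that lay apart in opposite directions, was 0.568, 0.523 and 0.566 in LPS and 0.767, 0.82 and 0.732 in LPSKD. Within the IκB family, Nfkbia relative to Nfkbib was 0.961, 0.885 and 0.902 in LPS, below 1 in each library, and 1.23, 1.16 and 1.17 in LPSKD, above 1 in each. Tnfaip3 relative to Rela was 0.699, 0.671 and 0.664 in LPS and 0.575, 0.579 and 0.605 in LPSKD. Nfkb1 relative to Rela was 1.05 ± 0.0105 (SD, n = 3) in LPS and 1.18 ± 0.0483 in LPSKD.

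**Figure D4:**
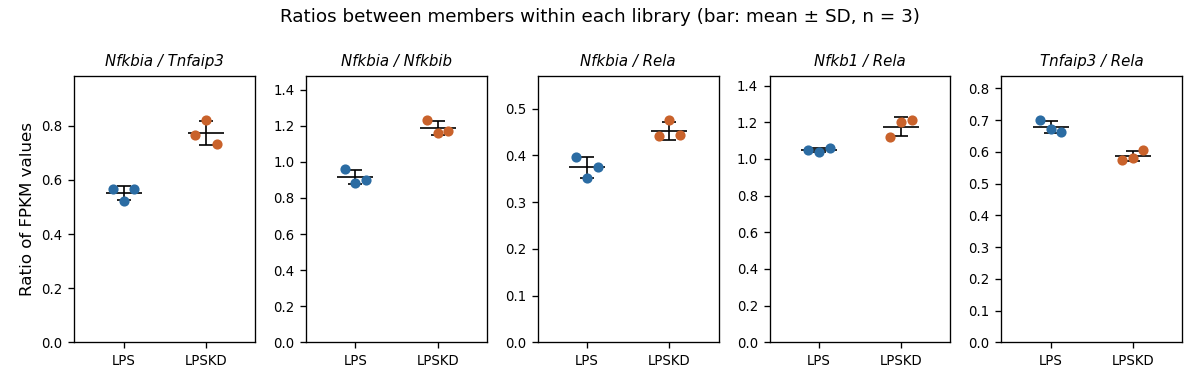
Ratio of FPKM values between members within each library, for 5 pairs, each panel on its own axis from 0 (points are libraries, blue LPS and orange LPSKD; bars are mean ± SD, n = 3). In all 5 pairs shown the groups do not overlap, but each pair holds a member whose own groups did not overlap. For Nfkbia to Tnfaip3, which lay apart in opposite directions, this outcome was fixed by the members' own values. Nfkbia to Tnfaip3 has a mean of 0.552 in LPS and 0.773 in LPSKD.

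Nfkbia had the smallest limma p of the members, and its pattern over the 6 libraries was compared with that of 11714 other genes as a description. Pearson's r of log2 levels was highest for Fkbp4 (0.998), Gm16286 (0.995) and Pon2 (0.994), and 308 genes had an r above 0.9. Among the members, Nfkb2 (0.938) and Nfkb1 (0.926) were closest to Nfkbia and Tnfaip3 farthest (-0.661), but these values contain the difference between the groups. After the group means were taken off, Nfkb2 (0.824) and Nfkbib (0.809) were the closest members, Nfkbie (-0.27) was the farthest, and Tnfaip3 was at 0.58. The closest of all genes were then Cpne1 (0.999), Ctnnb1 (0.997) and Atat1 (0.997), and 351 genes were above 0.9. None of the 3 closest genes was in both sets. With 6 libraries that share their scaling, correlations of this size are common, and no weight was placed on single names.

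The genes around the members in the pathway were counted by role. None of the 3 other IκB proteins had an adjusted p under 0.05. Nfkbil1 was at 19.1 ± 1.45 FPKM in LPS and 17.1 ± 2.25 FPKM in LPSKD, Bcl3, a nuclear IκB protein, at 5.96 ± 1.14 and 6.05 ± 0.212 FPKM, and Nfkbid at 2.0 ± 0.561 and 1.58 ± 0.294 FPKM. Of 25 kinases and adaptors that carry the signal to IκB, 24 were tested and none passed, with a median log2 fold change of 0.01. Chuk, which encodes the α kinase of the IκB kinase complex, was at 96.0 ± 7.41 and 93.1 ± 0.902 FPKM. Rbck1, part of the linear ubiquitin ligase complex, was at 76.2 ± 7.65 and 76.9 ± 1.12 FPKM. Its partner Rnf31, named after its values were seen, was at 11.5 ± 0.829 and 8.67 ± 1.13 FPKM without overlap, with an adjusted p of 0.105 by limma and of 0.0212 by voom. Of 16 other brakes, 15 were tested and 1 (6.67%) was called, Pdlim2, which encodes a factor that promotes breakdown of nuclear RelA. It went from 3.51 ± 0.317 to 5.53 ± 0.547 FPKM (log2 fold change 0.64, adjusted p = 0.0386 by limma). The call for Pdlim2 was lost when any 1 library was left out, with adjusted p-values from 0.0546 to 0.156, and by voom (0.0511). With all libraries it was also lost by limma with no filter (0.0904), without the eBayes trend (0.0591) and with the replicate block (0.0638).

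Larger differences were measured among the target genes of the pathway. Of 19 cytokine and chemokine targets, 14 were tested and 5 (35.7%) rose and none was called lower in this fit, beside 3.23% of all tested genes. A share of this size was not particular to targets, since 38.5% of the tested tubular epithelial markers were called. The means of 3 were lower, among them Csf2, a growth factor of granulocytes and macrophages, at 54.0 ± 1.89 FPKM in LPS and 43.9 ± 7.29 FPKM in LPSKD (adjusted p = 0.167 by limma), which was called lower without LPSKD replicate 2. Ccl20, a chemoattractant for lymphocytes and dendritic cells, rose from 62.2 ± 4.44 to 128 ± 6.09 FPKM (log2 fold change 1.04, SE 0.06, adjusted p = 5.42e-05). The neutrophil chemokines followed, Cxcl5 from 422 ± 25.0 to 735 ± 34.4 FPKM (log2 fold change 0.80), Cxcl2 from 112 ± 1.71 to 163 ± 2.78 FPKM (0.54) and Cxcl1 from 533 ± 28.8 to 712 ± 14.4 FPKM (0.42), each with an adjusted p of 0.00162 or less by limma. Csf1, the macrophage growth factor, rose from 71.5 ± 0.824 to 84.7 ± 1.42 FPKM (log2 fold change 0.24, adjusted p = 0.00994 by limma). The call for Csf1 was lost without LPS replicate 3 (0.0622) or LPSKD replicate 3 (0.0609), and with all libraries without the eBayes trend (0.0616). Ccl2, named after its values were seen, was at 19.6 ± 1.5 and 27.3 ± 4.65 FPKM (adjusted p = 0.0793). Il6 and Tnf were close to absent, with at most 8 and 5 fragments in a library.

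Of 22 adhesion, acute phase and effector targets, 16 were tested and 2 (12.5%) rose, beside 3.23% of all tested genes. The median log2 fold change was 0.02. Both called genes were higher without overlap, and 2 others, Vcam1 and Ptgs2, were lower without overlap. Groups did not overlap for 23.8% of all tested genes. Ptgs2 was at 70.3 ± 4.1 FPKM in LPS and 61.8 ± 1.45 FPKM in LPSKD (adjusted p = 0.106 by limma), and was called lower without LPS replicate 1. Lcn2, the tubular injury marker lipocalin, went from 719 ± 19.0 to 999 ± 11.7 FPKM (log2 fold change 0.47, adjusted p = 1.55e-04). Plau, which encodes urokinase, went from 861 ± 10.1 to 949 ± 10.9 FPKM (log2 fold change 0.14, adjusted p = 0.0424). Of 12 survival and stress targets, 11 were tested and 1 (9.09%) rose, Gadd45b, a stress response gene, from 267 ± 2.98 to 300 ± 8.7 FPKM (log2 fold change 0.17, adjusted p = 0.0345). In this list 4 genes were higher and 1 lower without overlap, beside 23.8% of all tested genes in either direction. The lower one was Cflar, at 41.3 ± 1.45 FPKM in LPS and 35.8 ± 2.39 FPKM in LPSKD (adjusted p = 0.127 by limma). The calls for both Plau (adjusted p 0.0546 to 0.173) and Gadd45b (0.056 to 0.15) were lost when any 1 library was left out. With all libraries both were also lost by limma with no filter, without the eBayes trend and with the replicate block. Plau was lost as well after quantile normalization (0.141) and with the filter at 0.1 FPKM (0.0567). Of the 6 called targets with a RefSeq promoter, 4 held the NF-κB consensus, as did 9 of 24 tested targets that were not called.

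**Figure D5:**
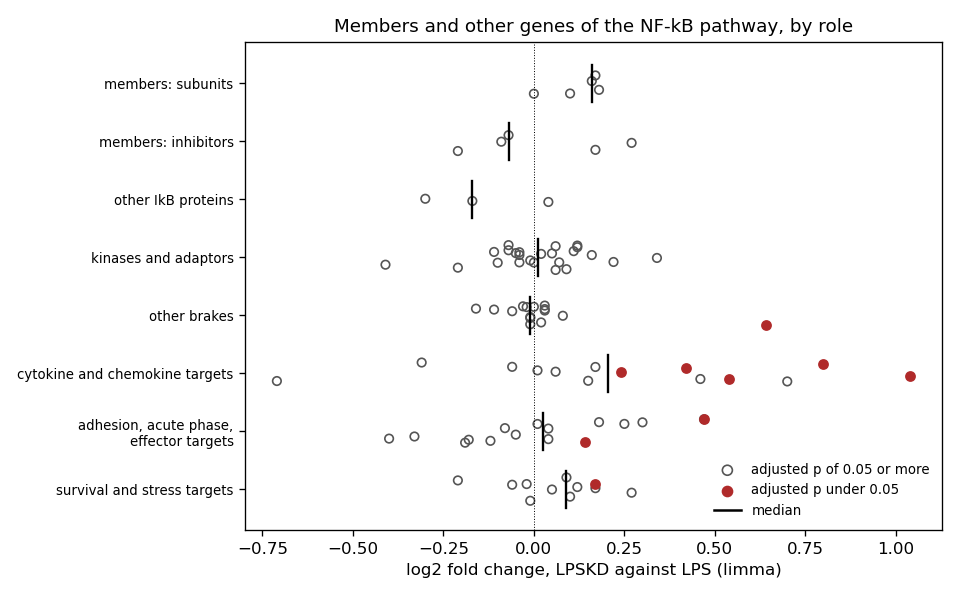
Log2 fold change, LPSKD against LPS, of the tested members and of the tested genes of 6 other pathway lists (filled red points have an adjusted p under 0.05 by limma, and vertical bars are medians). The members lie between -0.21 and 0.27, and the called points lie above 0, from 0.14 for Plau to 1.04 for Ccl20, with those of Plau, Gadd45b and Csf1 inside the members' range.

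Markers of the cells themselves also differed between the groups, and their part in the member values was not tested. Of 20 tubular epithelial markers, 13 were tested, 4 rose (Pax2, Pax8, Cdh16 and Aqp1) and 1 fell (Krt18), while their summed level overlapped, from 4706 to 4889 FPKM in LPS and from 4714 to 4801 FPKM in LPSKD. Of 14 immune cell markers, 6 were tested and 1 (16.7%) rose, Csf1r, the receptor of Csf1 (24.4 ± 2.74 to 33.3 ± 0.583 FPKM). The means of the other 5 were lower without passing, with a median log2 fold change of -0.24 over the 6. Of these, Cd68, a macrophage marker, was at 13.7 ± 1.2 FPKM in LPS and 11.1 ± 1.34 FPKM in LPSKD without overlap (adjusted p = 0.197 by limma). The summed level of the immune markers was 67.7 to 73.6 FPKM in LPS and 69.7 to 76.4 FPKM in LPSKD. Ptprc, which defines leukocytes, was at 0.88 and 0.818 FPKM on average. Of 11 fibroblast and endothelial markers, 9 were tested and none passed. The most abundant of them were Vim, at 33.1 ± 2.1 FPKM in LPS and 30.2 ± 5.75 FPKM in LPSKD, and Col1a1, at 5.86 ± 0.517 and 5.12 ± 2.16 FPKM.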

How the data were processed

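RNA-seq was read from 6 libraries of mTECs as paired ends of poly(A) RNA, and the authors deposited FPKM values, 1 per gene and library without pooling. The submitters' processing notes list HISAT2 2.0, StringTie 1.3.0, Bowtie 0.12.2 and the builds mm8 and GRCh38.p13, without their roles. Of 22442 gene identifiers, 22399 matched a symbol in GENCODE M21 (GRCm38), from which coordinates were taken. Values were whole fragments (tolerance 0.0001) for 100.0% of 16837 genes above 0, 97.7% with lengths equal to the merged coding sequence or within 10 bases above it, so fragments and library totals were recovered. No stretch of 31 bases of a member's coding sequence occurred in another gene's transcript.

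Tests used limma 3.58.1 in R 4.3.3 (lmFit, eBayes with trend) on log2(FPKM + 0.1) in 11723 genes that averaged 0.5 FPKM or more, among them all 10 members, with Benjamini-Hochberg adjustment over all of them and a threshold of 0.05. Fold changes are on that scale, which understates those of scarce genes. Exact permutation tests were two-sided over 20 assignments of labels. Members and lists were chosen with earlier results of these data known. The genes named were all members, Stat3 and the 3 genes most like the member with the smallest p. From each list, up to 4 called genes with the largest change were named or, where none was called, the 2 most abundant. Csf1, Csf2, Nfkbid, Rnf31, Ccl2, Il1a, Vcam1, Ptgs2, Cflar and the markers named were added after their values were seen. Alternatives tried were filters at 1 and 0.1 FPKM and none, pseudocounts of 1 and 0.01, quantile normalization, median centring, eBayes without trend, a replicate block, voom on recovered fragments and the omission of each library. Motifs were searched on both strands. The fit was tried on simulated data whose changes were larger than those of any member, so whether it finds differences of the members' size was not tested. Scripts ran in Python 3.11.15 with pandas 2.3.3, and plots were drawn with matplotlib 3.10.9.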

Additional observations from a re-analysis of the deposited data

How the results depend on the processing

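Of 160 alternative values for the members, 151 kept their direction and side of the threshold, 4 passed it and 5 turned in sign, all of Rela. The number of genes called, 379, was 140 without the eBayes trend, 213 with the replicate block, 585 by voom and 158 to 356 with 1 library left out. The number of members called, 0, was 3 by voom and 0 to 1 with 1 library left out, the 1 being Nfkbia. Rela was at -0.01 after quantile normalization and from -0.02 to 0.02 with 1 library left out. The same omissions gave -0.06 to 0.04 for Stat3, -0.05 to 0.19 for Bcl3, -0.11 to 0.001 for Chuk and -0.04 to 0.10 for Rbck1. The inhibitor minus subunit contrast, -0.11, was 0.137 with medians and -0.138 to -0.077 with 1 library left out. These are log2 values, and the cause of the changes was not tested.

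No shared deviation was seen between same-numbered libraries, which had correlations of -0.016, -0.004 and -0.043 in their deviations from the group means. Whether libraries were cultured or prepared in pairs cannot be read from these values. With the replicate block no member was called. With 3 libraries a group, the largest unadjusted p among called genes was 0.00161 and the smallest among the members 0.00303. Fragment counts cover counting error only.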
